A study of Homo sapiens with 6 samples.

Results

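The genes described here encode the proteins of the small nuclear ribonucleoprotein particles (snRNPs) of the major spliceosome and factors that join and activate them. The genes were chosen by symbol, as 57 named genes of the 60623 in the table, and each symbol had 1 row. The libraries were made from Huh7, a cell line from a human liver carcinoma, by sequencing of total RNA. In 3 libraries the genotype is given as WT and the title begins with NC (controls), and in 3 it is given as SRSF10 knockdown, which the series title ascribes to a short hairpin. The labels name no other allele or agent in either group. They leave unstated whether controls received a hairpin of their own, and an effect of carrying a hairpin and an effect of less SRSF10 cannot be told apart here. They also name no separate cultures behind the libraries of a group, so the p-values rest on a spread between libraries that may be technical.

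Pre-mRNA splicing begins when the U1 snRNP pairs with the 5′ splice site and the U2 snRNP is placed on the branch point with the help of SF1 and the U2AF proteins. The U4/U6.U5 tri-snRNP then joins, U1 and U4 leave, and the Prp19 complex helps to form the catalytic core. U1, U2, U4 and U5 snRNAs carry a ring of Sm proteins, while U6 carries a ring of LSm proteins. SRSF10, one of the SR proteins, takes part in the choice of splice sites, and the comparison asks how transcript levels differ when it is lowered.

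SRSF10 itself, which checks the labels, was at 18.6, 19.5 and 19.8 FPKM (fragments scaled to the gene's length and to the library's total) over the controls, while the knockdown libraries held 10.6, 10.8 and 10.6 FPKM, 44.8% less (p = 0.1 by an exact permutation test, two-sided, the smallest that 3 against 3 can give). Its log2 change was -0.80 (SE 0.038, limma adjusted p = 0.000166). Low values lie on steps of single fragments, which put the depth at 12680000 to 14350000 fragments per library. Of the liver or hepatoma markers reported, KRT8, KRT18, HNF4A and FGB reached the filter for testing, and none of these 4 passed the test. In control and knockdown KRT8 was at 440 and 436 FPKM, KRT18 at 189 and 180, HNF4A at 5.30 and 4.65 and FGB at 5.13 and 5.12. AFP was at 0.818 and 0.882 FPKM and ALB at 0.15 and 0.624 FPKM, and APOA2, TTR and GPC3 were listed at 0 in every library. Some defining liver transcripts of the labelled line were thus at or near 0, while HNF4A and FGB were not. The 5 immune markers summed to at most 0.653 FPKM in any library. Summed over 4 endothelial markers the libraries ran from 5.43 to 6.13 FPKM in the controls and from 9.46 to 10.8 FPKM in the knockdown. PECAM1 and KDR, the 2 that reached the filter, were called higher. CDH5 and VWF were not tested, at under 0.1 FPKM on average in both groups. Summed over 6 fibroblast or stellate markers the libraries ran from 4.12 to 5.21 and from 9.55 to 10.5 FPKM, nearly all of it LUM, with COL1A1 at 0.00723 and 0.106 FPKM. Summed over 4 cholangiocyte markers they ran from 93.8 to 98.0 and from 85.0 to 93.9 FPKM, nearly all of it KRT19, which was not called. SOX9 was called higher (1.32 and 4.34 FPKM) and KRT7 lower (3.16 and 1.14 FPKM), and EPCAM was at 0.212 and 0.159 FPKM. The part of these markers in the results below was not tested.

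The transcripts of the snRNP proteins were mostly a little lower in the knockdown. Of the 57 genes, 56 passed the filter of at least 1 FPKM in at least 3 libraries, and 17 of these fell and 1 rose (limma on log2(FPKM + 1), Benjamini-Hochberg adjusted p under 0.05 over all 12191 tested genes). Over all tested genes 12.5% were called lower and 12.6% higher, against 30.4% and 1.79% of the 56. The 17 that fell were 10.8% to 21.5% lower, with a median of 14.8%. The median log2 change of the 56 was -0.10 against -0.01 over all tested genes, and 47 of the 56 changes were below 0. For 26 of the 56 the 3 knockdown values all lay below the 3 control values, against 22% of all tested genes, and for 1 they all lay above, against 20.6%. Among the 9298 tested genes with a mean level within the range of the 56, 14.6% were called lower and 13.6% higher, both close to the shares over all tested genes. That range is wide, 2.27 to 119 FPKM, so these genes are not matched to the 56 in level. With a filter of 5 FPKM in at least 3 libraries, 19.3% of the 6824 genes tested were lower and 15.9% higher. In that fit 17 of 54 members (31.5%) were lower and 1 was higher. These are bulk libraries, in which fewer cells with a transcript and less of it per cell cannot be told apart.

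The number of calls depended on single libraries. Without control replicate 1, 2 or 3 there were 11, 9 and 12 lower, and without knockdown replicate 1, 2 or 3 there were 10, 7 and 10. In that order these were 19.6%, 16.1%, 21.4%, 17.9%, 12.5% and 17.9% of the 56. The share lower over all genes tested in those fits was smaller than in the main fit too, at 8.98%, 9.39%, 11.1%, 8.54%, 8.26% and 8.11%. Beside 1 that was called lower without control replicate 1 alone (SNRPD1), all calls in these fits were among the 17. LUC7L2, SNRPE and SF3A1 lost their call when any 1 library was left out, with adjusted p (limma) of up to 0.13, 0.108 and 0.15 over all settings. SF3B3 lost it without any 1 library but control replicate 3 (up to 0.0811), and PRPF4 without any 1 but knockdown replicate 1 (up to 0.11). SF3B5 lost it without control replicate 2 or 3 or knockdown replicate 1 or 2 (up to 0.0666), and U2AF2 without control replicate 1 or 2 or knockdown replicate 1 or 2 (up to 0.109). PRPF38A lost it without control replicate 2 or 3 or knockdown replicate 2 or 3 (up to 0.0644), and SNRPD3 without control replicate 1 or 2 or knockdown replicate 1 or 3 (up to 0.0778). PRPF31 lost it without control replicate 1 or knockdown replicate 2 (up to 0.0537), PRPF19 without knockdown replicate 1 or 2 (up to 0.0704) and PRPF4B without knockdown replicate 2 or 3 (up to 0.0585). SNRNP70, LUC7L3, SF3A3, SNRNP200, LSM3 and AQR were called lower in the main comparison and in all 15 alternative settings, and the others of the 17 lost their call in at least 1. The 1 call in the other direction, SF3A1, was lost in 10 of the 15.

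**Figure D1:**
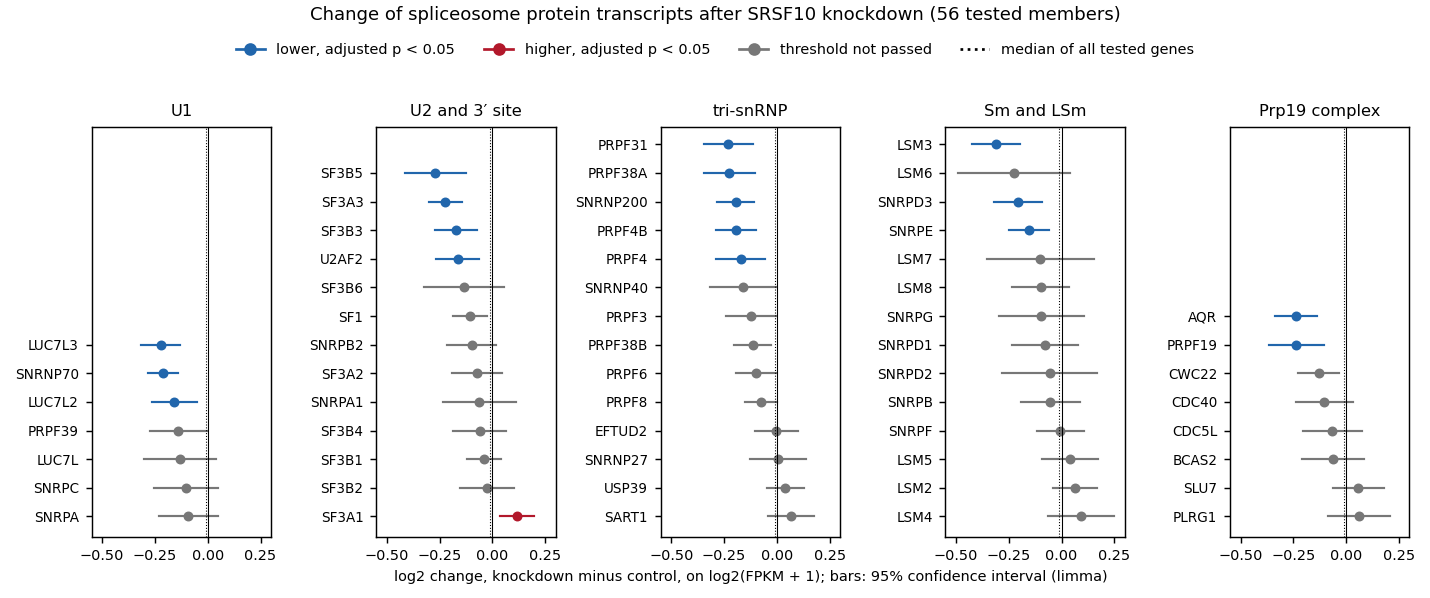
Log2 change (knockdown minus control, on log2(FPKM + 1)) of the 56 tested transcripts by particle, with points for the estimate and bars for the 95% confidence interval from limma, not adjusted for multiple testing. Blue points passed the threshold as lower (17), the red point as higher (SF3A1) and grey points did not pass, and 47 of 56 points lie left of 0.

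Stretches before RefSeq start sites are shown for 5 of the 6 genes called lower in all settings, 1 gene for each of the 5 groups below. Their shared direction follows from that choice. LUC7L3, of the U1 group like SNRNP70, is the gene left out. Each stretch shown is the 250 bases upstream of a RefSeq start (GRCh38.p14), read 5′ to 3′ on the strand of the gene, and capitals mark letters that match a searched motif on either strand. The GENCODE gene positions differ from these starts. By them LSM3 begins at 14178358 and SF3A3, on the minus strand, at 37990921, so both windows lie wholly inside the gene. The windows of SNRNP70 and AQR lie partly inside. Matches in these windows, or their lack, are therefore upstream of the RefSeq start only.
SNRNP70, chr19:49085201-49085450, plus strand: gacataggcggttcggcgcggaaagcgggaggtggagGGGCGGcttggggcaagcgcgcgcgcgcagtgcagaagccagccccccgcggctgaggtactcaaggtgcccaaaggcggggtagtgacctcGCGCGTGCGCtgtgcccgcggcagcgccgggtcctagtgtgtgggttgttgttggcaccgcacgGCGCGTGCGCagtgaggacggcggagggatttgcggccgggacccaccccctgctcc
SF3A3, chr1:37990023-37990272, minus strand: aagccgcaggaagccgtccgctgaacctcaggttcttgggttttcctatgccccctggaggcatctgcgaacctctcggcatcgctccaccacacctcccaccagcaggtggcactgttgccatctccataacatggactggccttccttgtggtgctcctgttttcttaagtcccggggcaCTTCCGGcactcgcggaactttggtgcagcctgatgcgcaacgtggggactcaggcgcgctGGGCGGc
SNRNP200, chr2:96305547-96305796, minus strand: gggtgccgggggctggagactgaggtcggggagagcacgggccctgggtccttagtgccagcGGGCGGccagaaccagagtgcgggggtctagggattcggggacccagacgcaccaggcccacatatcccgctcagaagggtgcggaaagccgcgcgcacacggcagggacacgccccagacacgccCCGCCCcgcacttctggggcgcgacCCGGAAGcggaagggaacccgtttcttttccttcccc
LSM3, chr3:14178567-14178816, plus strand: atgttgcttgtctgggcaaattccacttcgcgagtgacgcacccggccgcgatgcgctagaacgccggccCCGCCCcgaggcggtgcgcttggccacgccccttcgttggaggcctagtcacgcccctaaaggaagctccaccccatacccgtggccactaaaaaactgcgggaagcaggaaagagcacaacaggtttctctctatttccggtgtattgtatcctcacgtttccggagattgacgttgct
AQR, chr15:34969743-34969992, minus strand: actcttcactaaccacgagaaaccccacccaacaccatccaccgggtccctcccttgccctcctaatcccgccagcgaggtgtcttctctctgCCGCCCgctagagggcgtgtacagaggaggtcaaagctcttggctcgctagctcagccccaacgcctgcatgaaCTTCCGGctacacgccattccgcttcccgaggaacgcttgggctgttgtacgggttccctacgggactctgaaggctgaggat
Matches were sought to CCGGAAG for ETS factors, to the NRF1 motif, to AAGATGGC for YY1, to CCAAT for the CCAAT box, to GGGCGG for the GC box, to CACGTG for the E-box and to TATAAA for the TATA box. None of these motifs holds another of them. The ETS letters were in the windows of SF3A3, SNRNP200 and AQR, the NRF1 letters occurred 2 times in that of SNRNP70, and that of LSM3 held a GC box match alone. RefSeq windows were found for 51 of the 57 genes, and some genes have several starts, which gave 64 windows.

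As a group, the windows of these genes held the ETS letters in 27 of 64 cases, or 42.2%, against 15.1% of the 12398 windows of tested genes and 8.52% of all 35116 windows. The NRF1 letters were in 21.9%, against 9.56% of windows of tested genes and 5.07% of all. The other motifs were nearer to the share among tested genes: the GC box in 54.7% against 64.3% (42.6% of all windows), the CCAAT box in 34.4% against 33.3% (32.0% of all), the E-box in 4.69% against 8.42% (6.34% of all), the TATA box in 4.69% against 5.65% (10.7% of all) and the YY1 letters in 1.56% against 1.89% (1.36% of all). Of the 17 genes called lower, 15 had windows, and some had several, which gave 17 windows. The ETS letters were in 6 of these windows (35.3%) and the NRF1 letters in 2 (11.8%), smaller shares than in the whole group. The GC box was in 12 of the 17 windows (70.6%), a larger share than in the whole group. The CCAAT box was in 6 (35.3%), and the E-box, the TATA box and the YY1 letters were in 0. A match is a description of the letters and not a binding site.

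In the U1 group 3 of 7 genes (42.9%) fell and 0 rose, against 12.5% and 12.6% of all tested genes. The median log2 change was -0.14, and the number lower was 2 to 3 over the alternative settings. SNRNP70, the subunit that binds the first stem-loop of U1 snRNA, was at 56.3, 56.4 and 56.6 FPKM in controls against 47.9, 49.6 and 48.4 FPKM in the knockdown. The groups were well apart, and the controls were almost alike. The log2 change of SNRNP70 (ENSG00000104852, GRCh38 chromosome 19, 49085419 to 49108605, plus strand) was -0.21 (SE 0.029, limma adjusted p = 0.00354). The other U1-specific proteins, SNRPA and SNRPC, had overlapping groups and did not pass. SNRPA, which binds the second stem-loop, was at 25.9 ± 1.04 and 24.3 ± 1.8 FPKM (SD, n = 3 per group), a log2 change of -0.09 with a 95% interval of -0.23 to 0.05. SNRPC, which steadies pairing with the 5′ splice site, was at 48.9 ± 2.6 and 45.6 ± 3.4 FPKM, with an interval of -0.25 to 0.05, and its knockdown replicate 1 was the low one at 41.6 FPKM.

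The LUC7-like proteins are U1-associated factors related to a yeast U1 subunit and affect which 5′ splice sites are used. LUC7L3 was at 22.5, 22.1 and 23.7 FPKM in controls against 19.8, 19.2 and 19.1 FPKM in the knockdown, a log2 change of -0.22 (SE 0.039, limma adjusted p = 0.00811). LUC7L2 was at 7.34, 7.52 and 7.21 against 6.64, 6.63 and 6.22 FPKM, a log2 change of -0.16 (SE 0.044, limma adjusted p = 0.0417). For both the groups did not overlap, but LUC7L2 lost its call in 8 of 15 settings. LUC7L did not pass and had overlapping groups, at 8.28 ± 0.415 and 7.48 ± 0.74 FPKM. PRPF39, related to another yeast U1 protein, had groups that did not overlap, at 7.56, 7.32 and 7.83 against 6.85, 6.28 and 7.22 FPKM, but an adjusted p of 0.123 (limma). Exons of LUC7L2, LUC7L3, PRPF39 and SNRPA overlap those of other genes in the annotation, and without a known strand setting the 2 sources of such reads are not separable. The overlapping genes of LUC7L3 and LUC7L2 that were looked up in the table were low, the highest being AC083880.1 at 0.294 to 1.3 FPKM. FKBP3, whose exons overlap those of PRPF39, was higher in level than PRPF39 itself, at 10.8 to 13.7 FPKM over the libraries, and C19orf54, whose exons overlap those of SNRPA, was at 2.35 to 3.36 FPKM. Neither passed the test.

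In the U2 group 4 of 13 tested genes (30.8%) fell and 1 (7.69%) rose, against 12.5% and 12.6% of all tested genes. The median log2 change was -0.10, and the number lower was 1 to 5 over the alternative settings. It was 1 with no filter on low values and without control replicate 2 or knockdown replicate 1 or 2. In those fits 3.14% to 9.39% of all genes were lower. SNRPA1 and SNRPB2, which bind the U2 snRNA together, had overlapping groups and did not pass, at 13.7 ± 1.3 and 13.1 ± 0.74 FPKM and at 25.6 ± 1.2 and 23.9 ± 1.1 FPKM. The subunits of SF3A, which bridges the U2 core and SF3B, moved in both directions. SF3A3 was at 34.9, 34.3 and 36.0 FPKM in controls against 29.6, 29.9 and 30.2 FPKM in the knockdown, a log2 change of -0.22 (SE 0.033, limma adjusted p = 0.00418). SF3A1 was the 1 gene of the 56 that rose, from 15.8, 15.7 and 15.7 to 17.5, 16.8 and 17.1 FPKM, a log2 change of 0.12 (SE 0.034, limma adjusted p = 0.0473). For SF3A1 and SF3A3 the groups were apart in opposite directions. The ratio of the highest to the lowest SF3A subunit was 2.23 among controls against 1.74 after knockdown. CCDC157, whose exons overlap those of SF3A1, was at 0.215 FPKM or less in every library. SF3A2, the third subunit, did not pass, at 20.3 ± 1.2 and 19.2 ± 0.51 FPKM.

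SF3B holds the branch point adenosine region, and SF3B1, its largest subunit, is the one most often mutated in cancers. SF3B1 did not pass, at 51.2, 52.8 and 53.7 against 49.9, 52.0 and 51.5 FPKM, with an interval of -0.12 to 0.04 for the log2 change. SF3B4, the highest of all 57 genes in level, was at 128, 126 and 112 against 118, 114 and 118 FPKM and did not pass either. SF3B5, a small subunit encoded by a single exon gene, fell from 29.2, 31.8 and 32.6 to 24.5, 25.0 and 27.7 FPKM, a log2 change of -0.27 (SE 0.061, limma adjusted p = 0.0192). SF3B3, a scaffold of the particle, fell from 28.9, 28.6 and 26.6 to 24.3, 25.2 and 24.7 FPKM, a log2 change of -0.17 (SE 0.041, limma adjusted p = 0.0242). For both, all knockdown values lay below all controls. SF3B2 and SF3B6 had overlapping groups, with log2 changes of -0.03 (95% interval -0.15 to 0.10) and -0.13 (95% interval -0.32 to 0.06). The subunits of SF3B thus had unequal FPKM, which depends on the annotated gene length. SF3B4 was at 6.95 times SF3B6 in the controls and 7.34 times in the knockdown.

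At the 3′ splice site, U2AF2, which reads the polypyrimidine tract, fell from 83.4, 82.2 and 78.1 to 70.7, 70.7 and 76.0 FPKM, a log2 change of -0.16 (SE 0.043, limma adjusted p = 0.0331). SF1, which holds the branch point before U2 arrives, was at 42.8, 42.4 and 42.4 against 39.3, 38.4 and 40.7 FPKM. Its groups did not overlap but it just missed the threshold (log2 change -0.11, limma adjusted p = 0.0594). U2AF1, which reads the AG at the intron end, was the 1 gene of the 57 that failed the filter, at 0.757, 0.828 and 0.465 FPKM among controls against 1.02, 0.324 and 0.38 FPKM. The genome build carries a near-identical copy of U2AF1 on the same chromosome, U2AF1L5, which was at 0.707, 0.46 and 0.91 against 0.392, 0.383 and 0.296 FPKM. Reads of the pair can be split or dropped between them, so neither level can be taken as that of the transcript. An overlapping RNA of U2AF2 on the other strand, AC008735.2, was at 2.8 to 6.42 FPKM over the libraries.

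**Figure D2:**
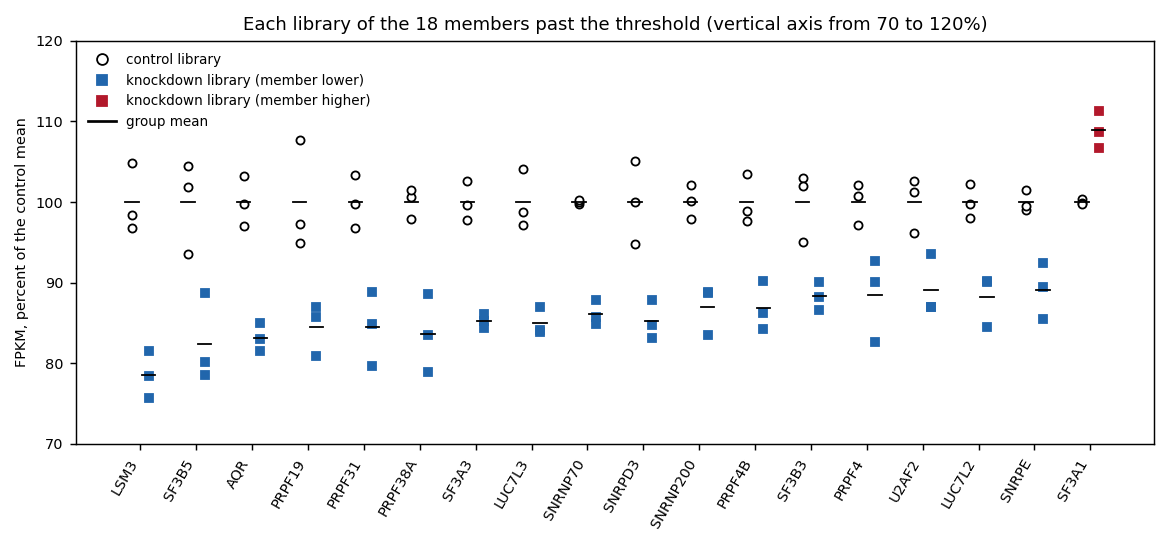
FPKM of each library as a percentage of the control mean (vertical axis from 70 to 120%) for the 18 transcripts past the threshold, with open circles for control libraries, squares for knockdown libraries and short lines for group means. In all 18 the knockdown values lie apart from the control values, below them in 17 and above them in SF3A1.

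In the tri-snRNP group 5 of 14 genes (35.7%) fell and 0 rose, against 12.5% and 12.6% of all tested genes. The median log2 change was -0.12. The number called lower was 1 to 5 over the alternative settings. It was 1 without knockdown replicate 2, where 8.26% of all genes were lower. For 9 of the 14 (64.3%) all knockdown values lay below all controls, against 22% of all tested genes. Of the U5 proteins the helicase SNRNP200, which unwinds U4 from U6, fell from 48.5, 47.6 and 46.5 to 39.7, 42.3 and 42.2 FPKM (log2 change -0.20, SE 0.037, limma adjusted p = 0.0108). PRPF8, the scaffold of the catalytic core, did not pass, at 68.7, 67.6 and 66.2 against 63.0, 63.5 and 65.4 FPKM, although the groups did not overlap (adjusted p = 0.13, limma). EFTUD2, the GTPase of U5, was at 20.0 ± 0.945 and 19.9 ± 0.23 FPKM, with a 95% interval of -0.10 to 0.10 for its log2 change. PRPF6, which links U5 to U4/U6, was at 44.7, 44.2 and 42.1 against 40.8, 42.0 and 39.3 FPKM, and SNRNP40, a WD40 protein of U5, at 11.9 ± 0.71 and 10.6 ± 0.80 FPKM. Neither passed (adjusted p = 0.117 and 0.12, limma).

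Of the U4/U6 proteins PRPF31, which binds the U4 snRNA and is mutated in inherited retinal degeneration, fell from 17.0, 16.4 and 15.9 to 13.1, 13.96 and 14.6 FPKM (log2 change -0.23, SE 0.049, limma adjusted p = 0.0165). PRPF4 fell from 25.7, 27.02 and 26.6 to 24.5, 21.9 and 23.8 FPKM (log2 change -0.17, limma adjusted p = 0.0442), a call that was lost in 11 of 15 settings. Its partner PRPF3 was at 31.1, 32.9 and 33.6 against 30.6, 30.7 and 28.0 FPKM and did not pass (adjusted p = 0.115, limma). In all 3 the knockdown values lay below the controls. Exons of PRPF31 overlap those of TFPT, and exons of PRPF4 overlap those of CDC26. TFPT was at 4.67 to 6.28 FPKM and CDC26 at 8.44 to 11.1 FPKM over the libraries, and neither passed the test.

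Among the proteins that join the tri-snRNP to the spliceosome or act in the complex formed then, PRPF38A fell from 7.11, 7.31 and 7.37 to 6.43, 6.07 and 5.73 FPKM (log2 change -0.22, SE 0.051, limma adjusted p = 0.0194). The kinase PRPF4B, which phosphorylates tri-snRNP proteins, fell from 24.8, 24.5 and 26.0 to 22.6, 21.7 and 21.2 FPKM (log2 change -0.19, SE 0.041, limma adjusted p = 0.0148). PRPF38B, related to PRPF38A, had groups that did not overlap, at 11.2 ± 0.20 and 10.2 ± 0.18 FPKM, but an adjusted p of 0.0633 (limma). SART1, USP39 and SNRNP27, the proteins specific to the tri-snRNP, had log2 changes above 0 that did not pass, of 0.07, 0.04 and 0.00, and overlapping groups. Their 95% intervals ran from -0.04 to 0.18, from -0.05 to 0.13 and from -0.13 to 0.14.

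In the Sm and LSm rings 3 of 14 genes (21.4%) fell and 0 rose, against 12.5% and 12.6% of all tested genes. The median log2 change was -0.09, and the number lower was 1 to 3 over the alternative settings. It was 1 with no filter on low values, with the replicate number as a block and without control replicate 2 or knockdown replicate 1 or 3. In those fits 3.14% to 9.40% of all genes were lower. Of the 7 Sm genes SNRPD3 fell from 9.95, 9.47 and 8.98 to 7.86, 8.31 and 8.02 FPKM (log2 change -0.21, SE 0.049, limma adjusted p = 0.0232). SNRPE fell from 13.6, 13.2 and 13.3 to 11.4, 12.4 and 12.0 FPKM (log2 change -0.15, SE 0.041, limma adjusted p = 0.0338). SNRPB, SNRPD1, SNRPD2, SNRPF and SNRPG did not pass and had overlapping groups, with log2 changes from -0.10 (SNRPG) to -0.01 (SNRPF). The intervals were wide for SNRPG (-0.30 to 0.10) and SNRPD2 (-0.28 to 0.17), so changes of the size seen in SNRPD3 were not excluded there. Exons of SNRPD3 overlap those of GUCD1, which was higher in the knockdown, at 25.2, 24.5 and 25.5 against 28.97, 28.4 and 28.4 FPKM (log2 change 0.18, limma adjusted p = 0.00817). Processed copies of SNRPG and SNRPE lie elsewhere in the genome, and SNRPGP15, for example, was listed at 2.83 to 10.9 FPKM, so reads of these genes can be split.

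The proteins of a ring are present in equal number in the particle, but the FPKM of their transcripts differed. FPKM divides by gene length, so an order or ratio of genes depends on the annotated lengths. SNRPD1, with 4909 exon bases, held an estimated 1532 to 1790 fragments per library. SNRPB, with 1278 exon bases, held 708 to 780. In the controls SNRPB was at 43.7 ± 3.2 FPKM and SNRPD3 at 9.46 ± 0.49 FPKM, a ratio of 4.62, which was 5.21 in the knockdown. The order was SNRPB, SNRPD2, SNRPD1, SNRPG, SNRPF, SNRPE and SNRPD3 in both groups. SNRPD1 and SNRPG, at 25.7 ± 2.4 and 23.8 ± 1.4 FPKM in the controls, had overlapping values there. SNRPB and SNRPN encode closely related proteins, and SNRPN was at 0.368 to 0.732 FPKM.

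Of the 7 LSm genes LSM3 fell from 9.83, 9.09 and 9.23 to 7.36, 7.11 and 7.64 FPKM, 21.5% lower, the largest fall among the 56 (log2 change -0.31, SE 0.048, limma adjusted p = 0.00498). All knockdown values were below all controls. LSM3 (ENSG00000170860) lies on GRCh38 chromosome 3, 14178358 to 14201119, plus strand, and is the 1 gene of the 57 on that chromosome. Of all 718 tested genes of chromosome 3, 315 (43.9%) were called lower and 34 higher, with a median log2 change of -0.19. Of the 326 that start below position 90000000, 185 (56.7%) were called lower and 4 higher, with a median log2 change of -0.27. Of the 12 other tested genes that start within 1000000 bases of LSM3, 11 were called lower and 0 higher, with a median of -0.38. XPC, whose exons overlap those of LSM3, fell too, from 7.57, 6.72 and 6.40 to 4.84, 5.37 and 4.72 FPKM. The part of this chromosome or region in the fall of LSM3 was not tested. On the other chromosomes that carry any of the 57 genes the median over all tested genes lay between -0.04 (chromosome 9) and 0.03 (chromosome 7).

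The other LSm genes did not pass. LSM2, the highest in level, was at 26.2 ± 0.78 and 27.5 ± 1.2 FPKM, LSM4 at 13.4 ± 1.2 and 14.3 ± 0.56 FPKM, and LSM5 at 10.8 ± 0.69 and 11.1 ± 0.475 FPKM, all with overlapping groups. LSM7 was at 11.9, 10.03 and 8.41 against 9.28, 9.41 and 9.15 FPKM, and its control values were widely spread. LSM6 was the lowest of the tested genes in level, at 2.57, 2.69 and 2.28 against 1.58, 2.09 and 2.40 FPKM, and its interval ran from -0.49 to 0.04. It rested on an estimated 88 to 147 fragments per library, the fewest among the 56. LSM8, which tells the nuclear U6 ring from the cytoplasmic ring with LSM1, was at 3.58, 3.34 and 3.35 against 3.25, 2.97 and 3.18 FPKM, with groups that did not overlap (adjusted p = 0.259, limma). LSM1 was at 8.80, 8.40 and 9.51 against 10.4, 8.55 and 9.44 FPKM and did not pass. LSM2 was at 10.4 times LSM6 in the controls and 13.6 times in the knockdown, the widest range of FPKM within any of these groups of proteins. This ratio too depends on the annotated lengths. LSM5, with 4701 exon bases, held an estimated 652 to 738 fragments, against 362 to 416 for LSM2 with 1077.

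**Figure D3:**
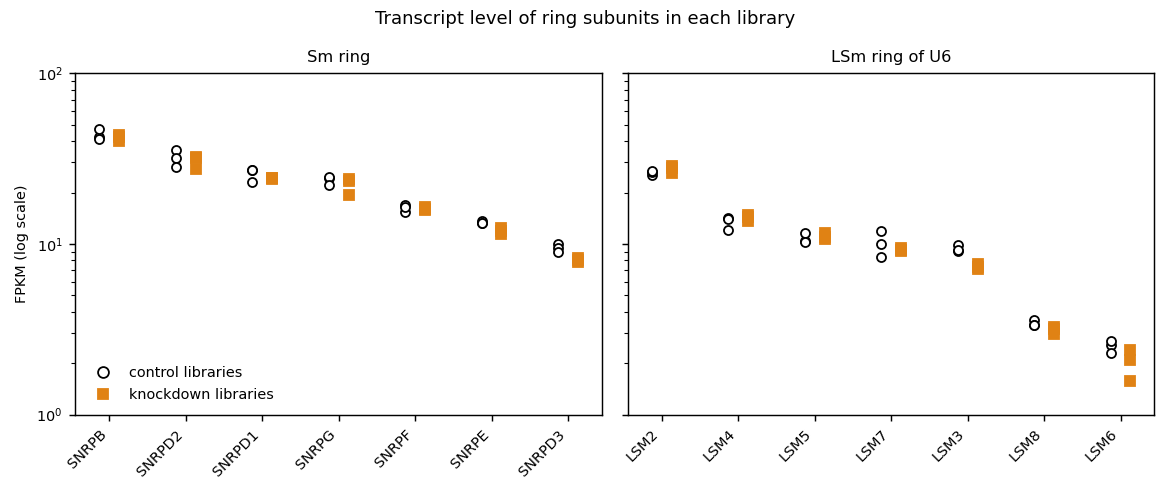
FPKM on a log scale for the genes of the Sm ring (left) and the LSm ring of U6 (right), with open circles for the 3 control and squares for the 3 knockdown libraries. SNRPD3, SNRPE, LSM3 and LSM8 show knockdown values below all controls, and levels span a ratio of 4.62 in the Sm ring and 10.4 in the LSm ring in the controls.

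Among the Prp19 complex and the factors that act after it 2 of 8 genes (25%) fell and 0 rose, against 12.5% and 12.6% of all tested genes. The median log2 change was -0.08, and the number lower was 1 to 2 over the alternative settings. It was 1 with no filter on low values and without knockdown replicate 1 or 2. In those fits 3.14%, 8.54% and 8.26% of all genes were lower. PRPF19, the ubiquitin ligase after which the complex is named, fell from 61.9, 68.5 and 60.4 to 51.5, 54.6 and 55.3 FPKM (log2 change -0.24, SE 0.055, limma adjusted p = 0.0221). Its core partners CDC5L, PLRG1 and BCAS2 had overlapping groups and did not pass, with log2 changes of -0.07, 0.06 and -0.06. AQR, a helicase that binds the intron, fell from 9.25, 9.51 and 9.83 to 7.91, 7.77 and 8.10 FPKM (log2 change -0.24, SE 0.041, limma adjusted p = 0.0077). CWC22, which places the exon junction complex on spliced RNA, was at 15.1, 15.3 and 15.8 against 14.1, 14.4 and 13.4 FPKM, with groups that did not overlap, and just missed the threshold (log2 change -0.13, limma adjusted p = 0.060). SLU7 and CDC40, factors of the second catalytic step, did not pass, at 9.12 ± 0.33 and 9.54 ± 0.51 FPKM and at 6.12 ± 0.19 and 5.64 ± 0.39 FPKM. Differences between the 5 groups of proteins were not tested.

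The 38 genes that did not pass had log2 changes from -0.22 (LSM6) to 0.09 (LSM4), 30 of them below 0. In level, the 56 tested genes ranged from 2.27 FPKM (LSM6) to 119 FPKM (SF3B4) over all libraries, with a median of 20.7 FPKM against 5.88 FPKM over all tested genes. Replicates differed little, with a median coefficient of variation of 4.14% in the controls and 3.90% in the knockdown. Exons of 20 of the 57 genes overlap exons of another gene in the annotation.

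Other genes of splicing were read from lists that do not share members with the 57. The list of snRNP assembly holds the SMN complex, the methylosome and cap and import factors. Of its 18 tested genes 9 fell (50%) and 0 rose, against 12.5% and 12.6% of all tested genes, with a median log2 change of -0.13. CLNS1A, which holds Sm proteins for methylation, fell from 25.8, 23.7 and 24.3 to 20.5, 20.6 and 20.7 FPKM (log2 change -0.24, limma adjusted p = 0.00612). TGS1, which makes the trimethylated cap of snRNAs, fell from 22.1, 22.8 and 21.2 to 18.5, 18.9 and 17.7 FPKM (log2 change -0.25, limma adjusted p = 0.00694). NCBP2, a subunit of the cap-binding complex encoded on chromosome 3, fell from 28.4, 31.2 and 29.1 to 22.2, 24.4 and 24.2 FPKM (log2 change -0.31, limma adjusted p = 0.00721). Over all tested genes of chromosome 3, 43.9% were called lower, and the part of this in the fall of NCBP2 was not tested. SMN1 was at 4.78 to 5.77 FPKM over the libraries and did not pass, and it shares its sequence with SMN2. Of the 18, 5 were called lower without knockdown replicate 2 or 3, 6 without control replicate 2 or 3 or knockdown replicate 1, and 7 without control replicate 1. Over all genes 8.11% to 11.1% were lower in those fits.

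Among 53 tested other proteins of the major spliceosome 7 fell and 1 rose, with a median log2 change of -0.07. Those with the smallest adjusted p were the helicase DDX42 (28.1, 28.9 and 29.9 against 22.8, 22.9 and 23.4 FPKM), CHERP (9.70, 9.59 and 9.58 against 7.52, 7.33 and 7.82 FPKM) and the U2-associated U2SURP (25.3, 26.0 and 28.7 against 23.0, 21.5 and 21.5 FPKM), all lower. SDE2 rose from 10.1 to 11.6 FPKM on average. Of 9 exon junction complex proteins PNN fell, from 59.6, 62.5 and 61.0 to 48.6, 48.4 and 49.5 FPKM (log2 change -0.32, limma adjusted p = 0.00113), and 0 rose. Of 11 proteins of the minor spliceosome, which removes a rare class of introns, ARMC7 fell, from 12.3, 13.6 and 11.3 to 6.91, 10.1 and 8.96 FPKM (log2 change -0.49, limma adjusted p = 0.0332), 0 rose, and the median log2 change was 0.05. The share lower in these 3 lists, from 9.09% to 13.2%, was near the 12.5% of all tested genes. The exon junction list nevertheless had a median log2 change of -0.09, against -0.10 for the 56, with 7 of its 9 changes below 0. For 4 of the 9 (44.4%) all knockdown values lay below all controls, against 46.4% of the 56. The same held for 14 of the 53 other major spliceosome proteins (26.4%) and 1 of the 11 minor spliceosome proteins. A small downward shift was thus not particular to the 56. Without knockdown replicate 2 or 3 the other major spliceosome proteins had 2 lower, and without control replicate 1 they had 4. SDE2 lost its call without control replicate 1 or 2 or knockdown replicate 1 or 2, and the minor spliceosome proteins had 0 lower without control replicate 1 or 2. Their median turned to between -0.04 and -0.02 without control replicate 3 or knockdown replicate 2 or 3, and to -0.01 with a filter of 5 FPKM.

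**Figure D4:**
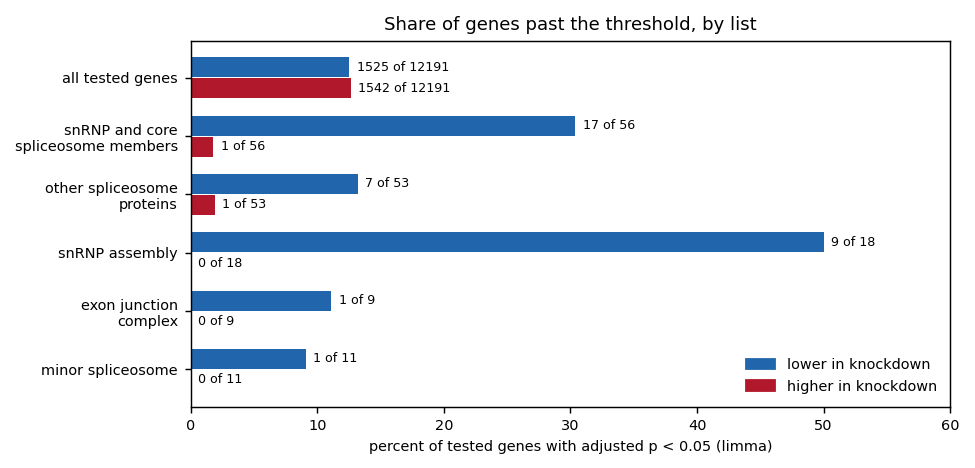
Percent of tested genes past an adjusted p of 0.05 (limma), lower (blue) and higher (red) in the knockdown, for all tested genes, the 56 tested snRNP and core spliceosome genes and 4 other lists, with counts beside the bars. The share lower is 30.4% for the snRNP and core spliceosome genes and 50% for snRNP assembly, against 12.5% over all tested genes.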

How the data were processed

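The 6 libraries labelled Huh7 were used. Per the labels' protocols RNA was extracted with TRIzol and sequenced after preparation with a Vazyme V6 kit. FastQC 0.11.9, Trim Galore 0.6.5-1 and GRCh38 are named per the submitters' processing notes. The aligner, counting program, annotation and strand setting were not given in the sources used here. Values are FPKM as the authors deposited them, shares of a library scaled by gene length, so a rise of abundant transcripts lowers others. Of each library's sum, 27.5% to 29.7% came from the mitochondrial genome. The table of all samples and the files per sample held the same values for 60623 genes.

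Genes with at least 1 FPKM in at least 3 libraries were tested with limma 3.58.1 in R 4.3.3 on log2(FPKM + 1), with a trend on mean expression and the group as the only term. Fold changes on this scale understate those of low genes. No count model was run. Depth was estimated with GENCODE 29 exon lengths, by which 87.9% to 88.4% of the values below 6.5 fragments fell on a whole number with a tolerance of 0.05 (10% by chance), and it bears on precision only. The steps were tested on simulated data. Positions come from GENCODE 29 and promoter windows from RefSeq (GRCh38.p14).

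The genes described, the lists and the tests were chosen with earlier results of these data known. The rule for named genes takes SRSF10, each of the 57 that passed the threshold or failed the filter, the highest in level, the smallest adjusted p and the largest change in each subgroup of proteins, and up to 3 genes per other list. Further genes were named after their values were seen. The symbol CENATAC of the minor spliceosome list was not matched. Of the liver markers, 1 is not reported here. The alternatives were other filters, pseudocounts and scalings, a replicate block, no trend and leaving out each library.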

Additional observations from a re-analysis of the deposited data

How the results depend on the processing

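Each value was recomputed under 15 other settings, of which the removal of a trend on exon length and GC content was chosen after seeing the data. SRSF10 kept its direction and call in all 15. For the 25 named genes among the 56, 298 of 375 recomputed results kept direction and side of the threshold, 76 lost the call, and 1 changed sign: SNRPB, which had not passed, at 0.0042 without control replicate 2 (-0.094 to 0.0042 when any 1 library was left out). The count of 17 lower was 9 with no filter on low values and 9 with the replicate number as a block, and 14 to 17 in the other settings that kept all libraries. With no filter the 9 were 15.8% of 57 tested, against 3.14% of all genes tested. With the block they were 16.1% of 56, against 9.40%. With the block, 0 were higher. The labels do not say whether same-numbered libraries were prepared together. Correlations of their deviations from the group means were -0.07 to 0.06, against -0.15 to 0.13 between unlike numbers. With 3 libraries per group these values cannot tell whether the libraries were paired. Leaving out 1 library gave 7 to 12 lower, 0 higher, and a median log2 change of -0.12 to -0.10; over all genes it gave 894 to 1352 higher and 964 to 1327 lower. SF3A1 was not called, leaving 0 higher, with no filter, with the replicate block, when rescaled without mitochondrially encoded genes and in limma without the trend. With no filter 1013 genes were lower. The cause of these shifts was not tested. The fit with no filter adjusted over more genes (32280), and the fits that left out 1 library had fewer libraries. No scaling moved the median of all genes by over 0.1, and its range over all settings was -0.02 to 0.002. Estimated fragments limit LSM6 (88 to 147 per library) most.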
